A study of Mus musculus with 12 samples.

Results

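The proximal tubule reabsorbs most of the filtered sugar, amino acids and phosphate, and it pays for this work by burning fatty acids in mitochondria and peroxisomes. A small network of transcription factors is known to keep that state: HNF4A and HNF4G switch on transporter and enzyme genes, PPARA and its partner RXRA run fatty acid oxidation, and the coactivator PGC-1alpha (Ppargc1a) with its partner ERRalpha (Esrra) runs mitochondrial respiration. FXR (Nr1h4) is the bile acid receptor, and MAF is a basic leucine zipper factor of the tubule that is also made by macrophages. These 8 genes were taken by name from the 55487 rows of the gene table. All 8 passed the filter on low counts in every comparison, with between 56 and 17856 counts in a library.

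Bulk RNA-seq was made from mouse kidney cortex in 4 groups of 3 libraries. Ctrl mice carried floxed ALR alleles (ALR flox/flox, labelled WT), and PT-KO mice carried the same alleles with Ggt1-Cre, a transgene active in proximal tubule cells (labelled ALR knockdown). Both had a C57BL/6 background and were 6 to 8 weeks old, and both were studied after sham treatment (Ctrl, PT-KO) or after I/R, in which both kidneys were made ischemic for 22 min and then reperfused for 24 h (Ctrl+I/R, PT-KO+I/R). ALR is encoded by Gfer and is a sulfhydryl oxidase of the mitochondrial intermembrane space.

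Library totals ran from 12165089 to 23123693 counts. Gfer was not lower in either knockout group, with a mean of 12.8 ± 1.52 CPM (counts scaled to library size, SD, n = 3) in Ctrl and 14.04 ± 3.68 in PT-KO, and after I/R of 17.6 ± 2.34 (Ctrl+I/R) and 22.01 ± 0.674 (PT-KO+I/R). The counts cover the whole gene and the whole cortex, while the deletion removes part of the gene in a single cell type. They do not check the deletion or the genotype labels, and why Gfer was not lower was not tested. The authors report lower ALR expression in PT-KO kidneys than in control kidneys. Ctrl libraries 1 and 2 came from female mice (22402 and 19755 Xist counts, 0 Y-linked counts), and the other 10 libraries, with at most 11 Xist counts, came from males, so comparisons with Ctrl carry sex as well. The group of Ctrl library 3 rests on the name of its column alone. Within Ctrl+I/R, library 4 had the lowest summed level of 8 injury markers (1802 CPM, against 2918 and 5315), and all 3 PT-KO+I/R libraries were above these (6441 to 8014). Proximal tubule markers were abundant in every library, with the endocytic receptor Lrp2 between 648 and 4927 CPM and its partner Cubn between 118 and 1117. Fewer tubule cells and less RNA per tubule cell cannot be told apart in bulk tissue, here and in all results that follow.

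Per exon length, Hnf4a was the most abundant of the 8 genes in each group, with a mean of 164 RPKM in Ctrl (reads scaled for library size and exon length). Nr1h4 (53.8 RPKM) and Maf (40.9) followed in Ctrl, then Esrra (27.1), Ppara (22.3), Rxra (21.9), Ppargc1a (20.2) and Hnf4g (3.97). The ranges of Nr1h4 and Maf overlapped in Ctrl, and so did those of Ppara, Rxra and Ppargc1a from one to the next. After I/R in the knockout the order of the middle ranks was different. Rxra (32.9 RPKM) and Ppara (28.1) stood above Maf (20.7), and Esrra (6.86) and Ppargc1a (5.58) lay far below them. The ranges of Rxra and Ppara overlapped there, as did those of Esrra and Ppargc1a, and the range of Maf overlapped neither neighbour.

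**Figure D1:**
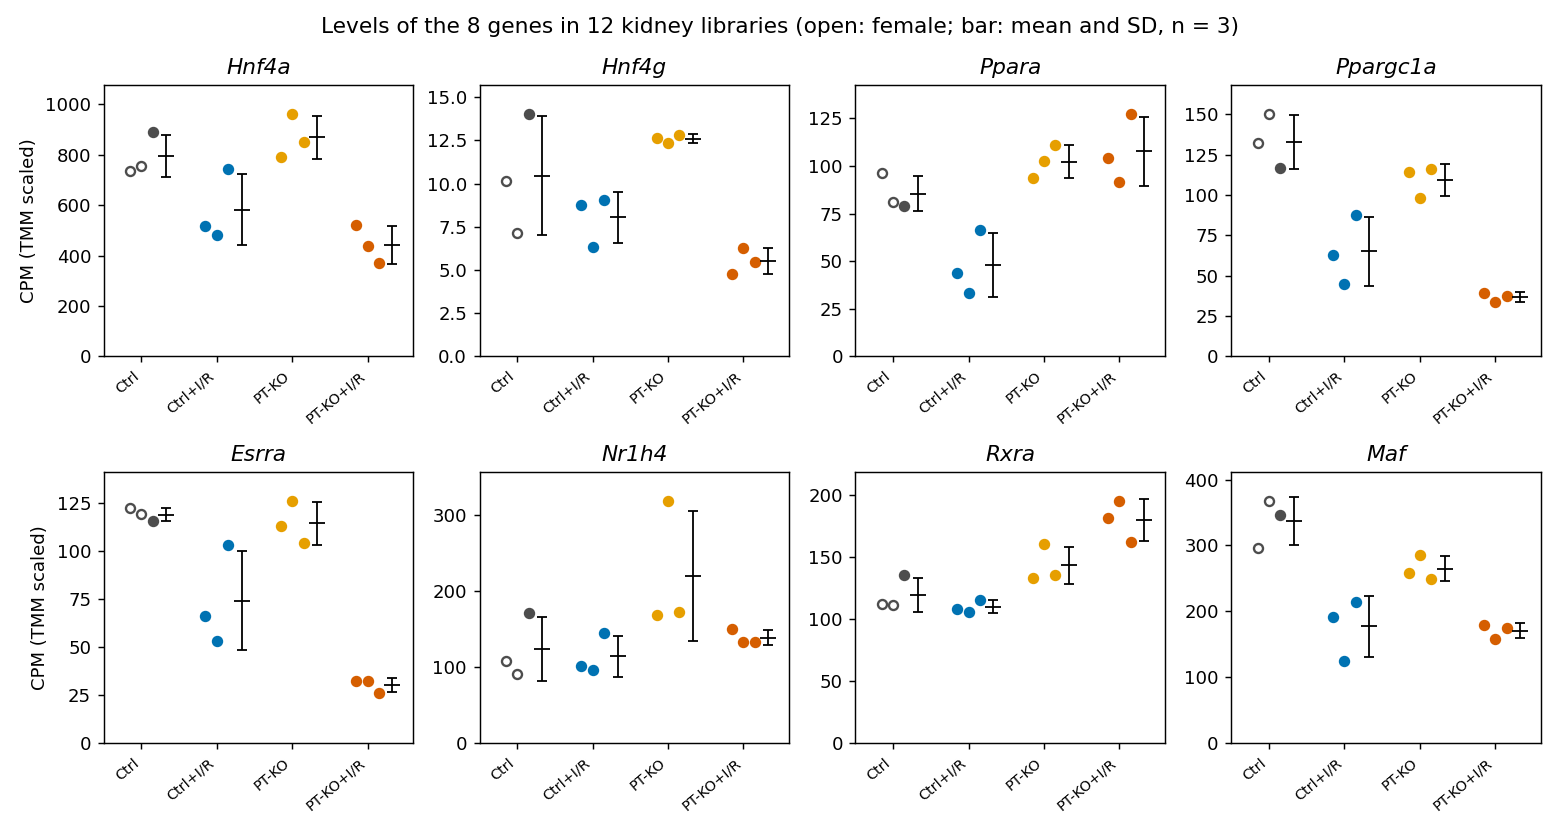
Levels of the 8 genes as CPM scaled by the TMM method (y axis, from 0, a scale of its own in each panel) in the 4 groups (x axis), with 1 point a library, open for the female mice, and the mean ± SD of 3 libraries at the side. Esrra in PT-KO+I/R sits between 25.9 and 32.2 CPM, below each library of the other groups, while Ppara in the same libraries sits between 91.4 and 127 CPM, above the Ctrl+I/R libraries.

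The 4 comparisons of 3 against 3 libraries were fitted with edgeR, and genes with an adjusted p under 0.05 count as called. Between Ctrl+I/R and Ctrl, Ppara, Ppargc1a and Maf fell and no member rose, so that 3 of 8 were called, where 19.4% of all 15567 tested genes were called (11.4% higher, 7.97% lower). Between PT-KO+I/R and PT-KO, Rxra rose, 6 members fell and only Ppara was not called, where 65.5% of all genes were called (32.9% higher, 32.7% lower). Between Ctrl+I/R and PT-KO+I/R, Ppara and Rxra rose and Ppargc1a and Esrra fell, where 46.9% of all genes were called (22.5% higher, 24.4% lower). Between PT-KO and Ctrl, edgeR called 0 of 8 members and 0% of all genes; 4 members (Ppara, Ppargc1a, Nr1h4 and Maf) and 2573 genes had an unadjusted p under 0.05, and DESeq2 called 448 genes and no member. The interaction, which asks whether the change with I/R differed between genotypes, was called for Ppara and Esrra, where 30.6% of all genes were called (14.3% higher, 16.4% lower).

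The 2 groups did not overlap in 4 of 8 members for Ctrl+I/R and Ctrl (43.7% of all tested genes), 5 of 8 for Ctrl+I/R and PT-KO+I/R (58.7%), 2 of 8 for PT-KO and Ctrl (21%) and 7 of 8 for PT-KO+I/R and PT-KO (70.8%). With 3 against 3 libraries the smallest p of an exact permutation test is 0.1, so the calls rest on the count model fitted across genes. The median log2 difference of the 8 members was -0.56 for Ctrl+I/R against Ctrl, beside -0.01 for all genes. It was -0.83 for PT-KO+I/R against PT-KO, beside 0.01. The member median was -0.23 between Ctrl+I/R and PT-KO+I/R, beside -0.0049, and 0.19 for PT-KO against Ctrl, beside -0.01.

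**Figure D2:**
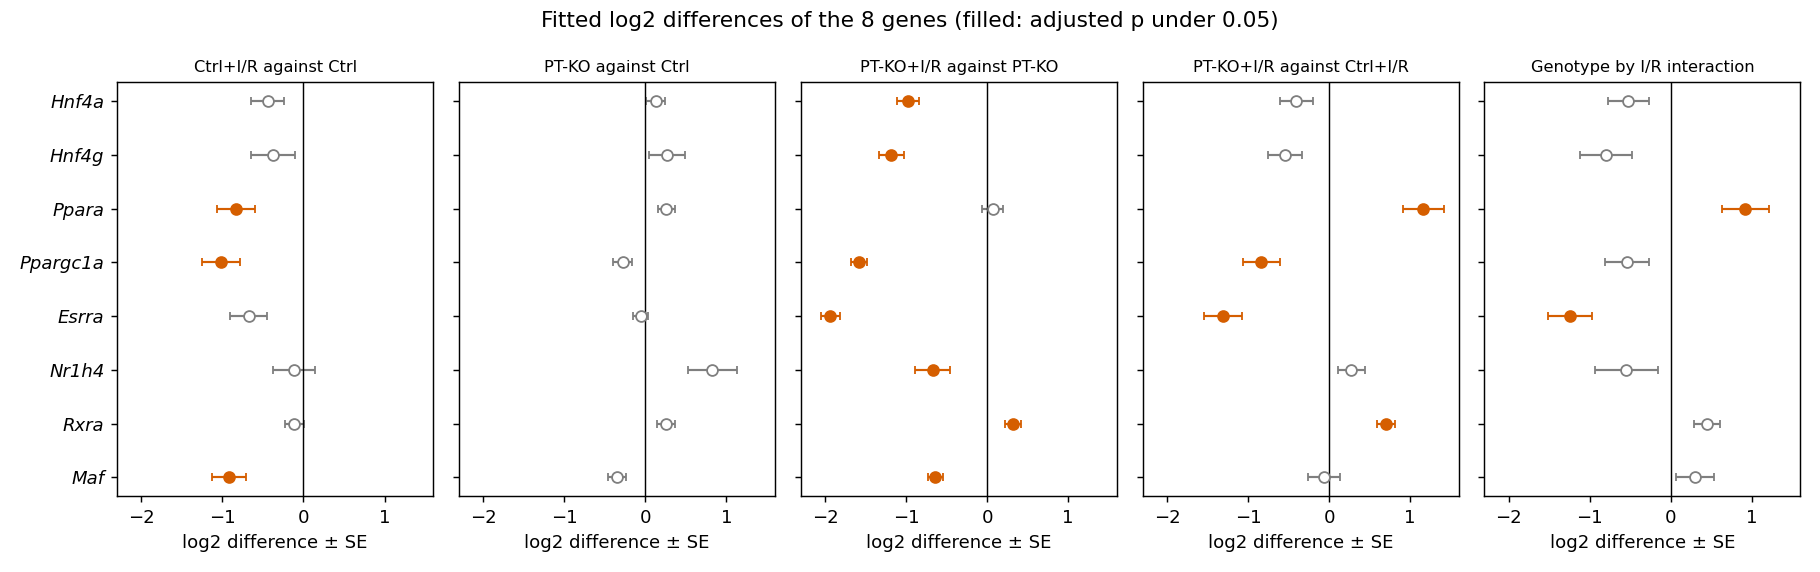
Fitted log2 differences (x axis, points) with their standard errors (bars) for the 8 genes (rows) in the 4 comparisons and the genotype by I/R interaction, filled where the adjusted p is under 0.05. Ppara is at -0.83 with I/R in control mice and at 0.07 with I/R in PT-KO mice, and Esrra at -0.68 and -1.93.

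Hnf4a encodes the nuclear receptor that heads the proximal tubule programme, and it lies on chromosome 2 (163506808 to 163572910, plus strand, GRCm38 as in GENCODE M21). It stood at 736, 756 and 889 CPM in Ctrl and at 793, 962 and 851 CPM in PT-KO. After I/R it stood at 518, 483 and 745 CPM in Ctrl+I/R and at 521, 437 and 371 CPM in PT-KO+I/R. Only Ctrl+I/R library 4 reached the level of the sham libraries, and the PT-KO+I/R libraries all lay below those of PT-KO. Hnf4a fell between PT-KO and PT-KO+I/R by 0.98 on the log2 scale (SE 0.13, adjusted p = 0.000105), which left a mean of 443 ± 75.2 CPM (SD, n = 3) of 868 ± 85.6. In control mice the difference was -0.44 (SE 0.20, adjusted p = 0.152). It was -0.66 without Ctrl+I/R library 4 (adjusted p = 0.0321). Between the injured groups it was -0.40 (SE 0.20, adjusted p = 0.135), and between -0.53 and -0.19 without any 1 library. The interaction was -0.52 (SE 0.25, adjusted p = 0.131).

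Hnf4g encodes the close relative of HNF4A and was the least abundant member (chromosome 3, 3508030 to 3658052, plus strand). Its levels were 10.2, 7.16 and 14.02 CPM in Ctrl, 8.75, 6.32 and 9.04 CPM in Ctrl+I/R, 12.6, 12.3 and 12.8 CPM in PT-KO, and 4.79, 6.28 and 5.48 CPM in PT-KO+I/R. The 3 PT-KO+I/R libraries were the lowest of the 12. Hnf4g fell by 1.18 on the log2 scale between PT-KO and PT-KO+I/R (SE 0.16, adjusted p = 9.12e-05). Between Ctrl+I/R and PT-KO+I/R the difference was -0.54 (SE 0.21, adjusted p = 0.0661). It was -0.70 without Ctrl+I/R library 2 (adjusted p = 0.0219). Scaling by total counts, which moved the median of all genes between these groups from -0.0049 to -0.21, gave -0.74 for Hnf4g (adjusted p = 0.0192) and -0.60 for Hnf4a (adjusted p = 0.0389). With that scaling 28.0% of all genes called were higher in PT-KO+I/R, against 48.0% with TMM. The interaction was -0.80 (SE 0.32, adjusted p = 0.0734), and it was past the threshold if Ctrl library 3 (-1.07, adjusted p = 0.0140) or Ctrl+I/R library 2 (-0.96, adjusted p = 0.0342) was left out. The ratio of Hnf4a to Hnf4g counts within a library, which needs no scaling, overlapped between all groups (59.2 to 82.3 in Ctrl+I/R and 67.7 to 109 in PT-KO+I/R).

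Ppara encodes the fatty acid receptor that switches on oxidation genes, and it was the member that was not called with I/R in the knockout (chromosome 15, 85734983 to 85802819, plus strand). Its levels in Ctrl were 96.2, 81.3 and 79.2 CPM, and in Ctrl+I/R they were 43.6, 33.4 and 66.3 CPM. PT-KO libraries held 93.5, 102 and 111 CPM, and PT-KO+I/R libraries held 104, 91.4 and 127 CPM. The Ctrl+I/R libraries were thus the lowest of all 12, and PT-KO and PT-KO+I/R overlapped. Ppara fell between Ctrl and Ctrl+I/R by 0.83 on the log2 scale (SE 0.24, adjusted p = 0.0481), and this call was lost in 5 of the 6 fits without 1 library (it was kept without Ctrl+I/R library 4) and with Ctrl library 3 as the only control (-0.71, adjusted p = 0.366). With I/R in the knockout the difference was 0.07 (SE 0.12, adjusted p = 0.656). Ppara rose by 1.17 between Ctrl+I/R and PT-KO+I/R (SE 0.25, adjusted p = 0.00675), and between 0.96 and 1.47 without any 1 library. The interaction was 0.92 (SE 0.29, adjusted p = 0.0322). It was 0.80 with the male libraries alone (adjusted p = 0.168), and its call was lost in 5 of the 12 fits without 1 library, namely Ctrl library 1, Ctrl+I/R library 1, PT-KO library 1 or 2, or PT-KO+I/R library 4.

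Genes known as PPARA targets were mostly higher in PT-KO+I/R, and this list, like the others used here, was drawn up with earlier results of these data known. Of 28 tested, 17 rose and 2 fell between Ctrl+I/R and PT-KO+I/R, with a median log2 difference of 0.64 beside -0.0049 for all genes. Total-count scaling gave 16 higher and 2 lower with a median of 0.44. Pdk4, which holds back glucose oxidation, rose by 4.62 on the log2 scale (SE 0.37, adjusted p = 0.000201). Acot2, a mitochondrial acyl-CoA thioesterase, rose by 2.01 (SE 0.09, adjusted p = 5.00e-05). The 2 that fell were Fabp3, a fatty acid binding protein, at -1.43 and Acadm, the medium-chain acyl-CoA dehydrogenase, at -0.77, and Acadm is named here after its value was seen.

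Summed over the list, PPARA targets held 6088 to 7204 CPM in Ctrl, 4558 to 7311 CPM in Ctrl+I/R and 7635 to 7890 CPM in PT-KO. They held 17554 to 18066 CPM in PT-KO+I/R, so no other library came near that group. Between PT-KO and PT-KO+I/R, where Ppara was not called, 17 of 27 targets rose and 5 fell. Plin2, a coat protein of lipid droplets, rose there by 5.88 (SE 0.18, adjusted p = 2.41e-08), and Fabp3 fell by 2.07 (SE 0.10, adjusted p = 1.12e-07). Between Ctrl and Ctrl+I/R, where Ppara fell, 1 of 27 targets rose (Plin2, 1.505) and 1 fell (Hadhb, a subunit of the mitochondrial trifunctional protein, -0.52), and 10 had an unadjusted p under 0.05. None was called if Ctrl library 1, Ctrl library 2 or Ctrl+I/R library 1 was left out. Leaving out Ctrl library 3 gave 2 that rose and none that fell, and leaving out Ctrl+I/R library 4 gave 2 that rose and 8 that fell.

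Rxra encodes the retinoid X receptor that pairs with PPARA, FXR and other receptors (chromosome 2, 27676440 to 27762957, plus strand). Its levels were 112, 111 and 136 CPM in Ctrl, 108, 106 and 116 CPM in Ctrl+I/R, 134, 161 and 136 CPM in PT-KO, and 182, 196 and 162 CPM in PT-KO+I/R. The PT-KO+I/R libraries were the 3 highest of the 12. Rxra rose by 0.70 on the log2 scale from Ctrl+I/R to PT-KO+I/R (SE 0.11, adjusted p = 0.00177) and was the member that varied least between libraries of a group (SD 0.13 on the log2 CPM scale). From PT-KO to PT-KO+I/R it rose by 0.32 (SE 0.10, adjusted p = 0.0202), a call that was lost without PT-KO library 1, PT-KO library 4 or PT-KO+I/R library 3 (adjusted p = 0.0846, 0.0827 and 0.0703). Over all 13 alternatives this call was lost in 4, with differences from 0.21 to 0.41. In control mice the difference with I/R was -0.12 (SE 0.12, adjusted p = 0.499). The interaction was 0.45 (SE 0.16, adjusted p = 0.0518), and it was called without PT-KO library 2 (0.54, adjusted p = 0.0342) or PT-KO+I/R library 4 (0.52, adjusted p = 0.0483). Over all 20 alternatives the interaction was called in 5, with values from 0.26 to 0.63. Between PT-KO and Ctrl the difference was 0.26 (SE 0.11, adjusted p = 0.297), and 0.36 without the male Ctrl library 3 (adjusted p = 0.0448).

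RefSeq (GRCm38.p6) gives 2 start sites of Rxra, and the window of the downstream one is shown because it holds 2 half-sites AGGTCA, the letters that nuclear receptors read. The 150 bases lie at chr2:27709142-27709291 on the plus strand, and capitals mark the matches on either strand.

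Rxra, downstream start: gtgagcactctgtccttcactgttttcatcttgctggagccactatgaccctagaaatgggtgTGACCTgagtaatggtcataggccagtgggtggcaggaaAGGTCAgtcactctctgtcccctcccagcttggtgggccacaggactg

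The matches start 87 and 48 bases before the start site, and the second, with the base before it, also reads AAGGTCA, the longer half-site of the ERR receptors. AGGTCA occurs in 16.3% of the 32851 promoter windows of this kind (250 bases before to 50 after a start) and AAGGTCA in 4.72%. The windows of Hnf4a, Ppara, Ppargc1a and Esrra and of the upstream Rxra start hold none of the letters searched, which says only that they are not in those windows. Of the 8 members 6 had an entry in the promoter table, and Hnf4g and Maf had none.

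Ppargc1a encodes PGC-1alpha, the coactivator of mitochondrial biogenesis and respiration (chromosome 5, 51454250 to 51567726, minus strand). Ctrl libraries held 132, 150 and 116 CPM and Ctrl+I/R libraries 63.1, 44.9 and 87.7 CPM. PT-KO libraries held 114, 98.2 and 116 CPM, and PT-KO+I/R libraries held 39.4, 33.6 and 37.3 CPM. Every I/R library was below every sham library, and the PT-KO+I/R libraries were below those of Ctrl+I/R. With I/R, Ppargc1a fell by 1.02 on the log2 scale in control mice (SE 0.24, adjusted p = 0.0284) and fell by 1.58 in PT-KO mice (SE 0.10, adjusted p = 7.52e-07). The first of these calls was lost without Ctrl library 1, Ctrl library 2 or Ctrl+I/R library 1 (adjusted p = 0.0902, 0.102 and 0.0884), and with Ctrl library 3 as the only control the value was -0.82 (adjusted p = 0.309). It fell between Ctrl+I/R and PT-KO+I/R by 0.84 (SE 0.23, adjusted p = 0.0179), a call lost without PT-KO+I/R library 3 or 4 (adjusted p = 0.0708 and 0.0616). The interaction was -0.55 (SE 0.27, adjusted p = 0.146). It was -0.77 without Ctrl+I/R library 2 (adjusted p = 0.0134), and the 12 fits without 1 library ran from there to -0.28.

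Esrra encodes ERRalpha, the orphan receptor through which PGC-1alpha acts on respiratory genes, and it had the largest called log2 difference of the 8 members in 3 of the fits: both comparisons of PT-KO+I/R and the interaction. Its levels were 122, 119 and 115 CPM in Ctrl and 113, 126 and 104 CPM in PT-KO. After I/R they were 66.4, 53.1 and 103 CPM in Ctrl+I/R and 32.2, 32.2 and 25.9 CPM in PT-KO+I/R. Ctrl+I/R library 4, the one with the lowest injury marker level, stood near the sham libraries, and all PT-KO+I/R libraries lay below the other 9. Esrra fell by 1.93 on the log2 scale between PT-KO and PT-KO+I/R (SE 0.11, adjusted p = 3.79e-07) and by 1.31 between Ctrl+I/R and PT-KO+I/R (SE 0.24, adjusted p = 0.00355). In control mice it differed by -0.68 with I/R (SE 0.23, adjusted p = 0.0734). It was -0.99 without Ctrl+I/R library 4 (adjusted p = 0.00638). The interaction was -1.24 (SE 0.27, adjusted p = 0.00549), between -0.94 and -1.45 without any 1 library, and -1.29 with the male libraries alone (adjusted p = 0.0440). Esrra (chromosome 19, 6910977 to 6921813, minus strand) shares 73 exon bases with Trmt112 on the opposite strand, whose counts reached at most 583. Trmt112 rose by 1.5005 between Ctrl+I/R and PT-KO+I/R (SE 0.19, adjusted p = 0.000793), opposite to Esrra, and whether reads were assigned by strand is not given in the sources used here.

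Genes known to be driven by PGC-1alpha and ERRalpha showed mostly small differences between the injured groups. Of 28 tested, 1 rose and 4 fell between Ctrl+I/R and PT-KO+I/R, with a median log2 difference of -0.10 (-0.0049 for all genes), and with total-count scaling 0 rose and 8 fell with a median of -0.30. Leaving out 1 library gave between 1 lower (without PT-KO+I/R library 3) and 10 lower (without Ctrl+I/R library 2), and medians from -0.23 to 0.0033. Those that fell included Tfb1m, a mitochondrial rRNA methyltransferase, by 1.10 (SE 0.27, adjusted p = 0.0118), and Idh3a of the citric acid cycle by 0.72 (SE 0.17, adjusted p = 0.0106). Ndufs1, a subunit of respiratory complex I, fell by 0.67 (SE 0.17, adjusted p = 0.0134), the fourth was Esrrg at -0.65, and the 1 that rose was Gabpa at 0.37, which are named after their values were seen. With I/R in PT-KO mice 22 of 28 fell and 1 rose (Nrf1 at 0.36, named after its value was seen), with a median of -0.55. Ndufs1 (-1.39), Sod2 (-1.26) and Esrrg (-1.28) had the smallest adjusted p of these. In control mice 6 of 28 fell with I/R, none rose, and the median was -0.50, but no gene of the list was called without Ctrl library 1, 2 or 3 or Ctrl+I/R library 1. With Ctrl+I/R library 2 left out 1 fell, and with Ctrl+I/R library 4 left out 18 fell.

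**Figure D3:**
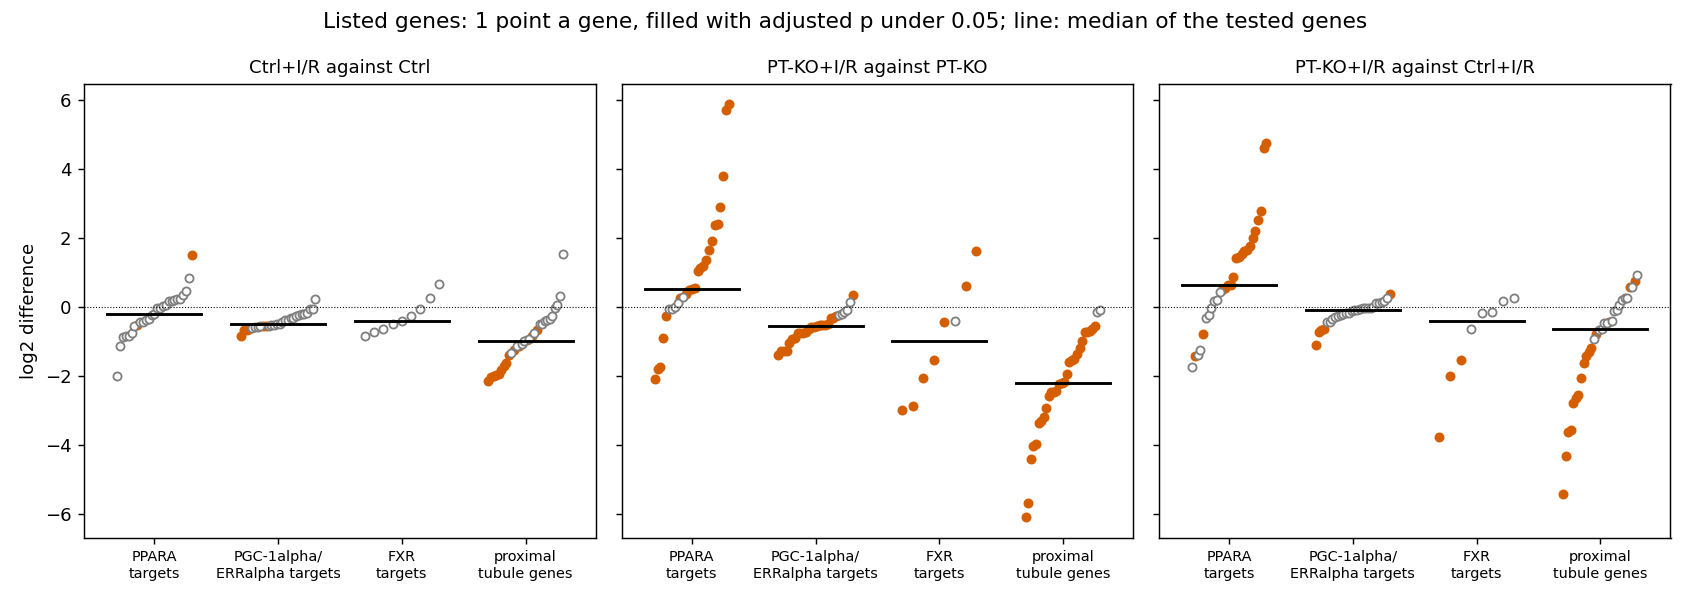
Log2 differences (y axis) of listed target genes of PPARA, of PGC-1alpha and ERRalpha and of FXR, and of proximal tubule genes (x axis), with 1 point a gene in order of its value, filled where the adjusted p is under 0.05, and a line at the median of the tested genes. PPARA targets have a median of 0.64 between Ctrl+I/R and PT-KO+I/R, where proximal tubule genes have -0.64 and PGC-1alpha and ERRalpha targets -0.10.

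Within a library, the ratio of 2 genes' counts does not depend on the scaling, and 2 such ratios were chosen after the values had been seen and are given as a description. Ppara counts over Ppargc1a counts were 0.728, 0.541 and 0.680 in Ctrl, 0.690, 0.745 and 0.756 in Ctrl+I/R and 0.818, 1.04 and 0.957 in PT-KO. In PT-KO+I/R they were 2.65, 2.72 and 3.41, above all other libraries. Rxra over Esrra was 0.916 to 1.17 in Ctrl, 1.125 to 2.00 in Ctrl+I/R, 1.18 to 1.30 in PT-KO and 5.64 to 6.26 in PT-KO+I/R. Ctrl and Ctrl+I/R overlapped in both ratios, for Rxra over Esrra through Ctrl+I/R library 4 alone (1.125, against 1.63 and 2.00 in the other two).

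**Figure D4:**
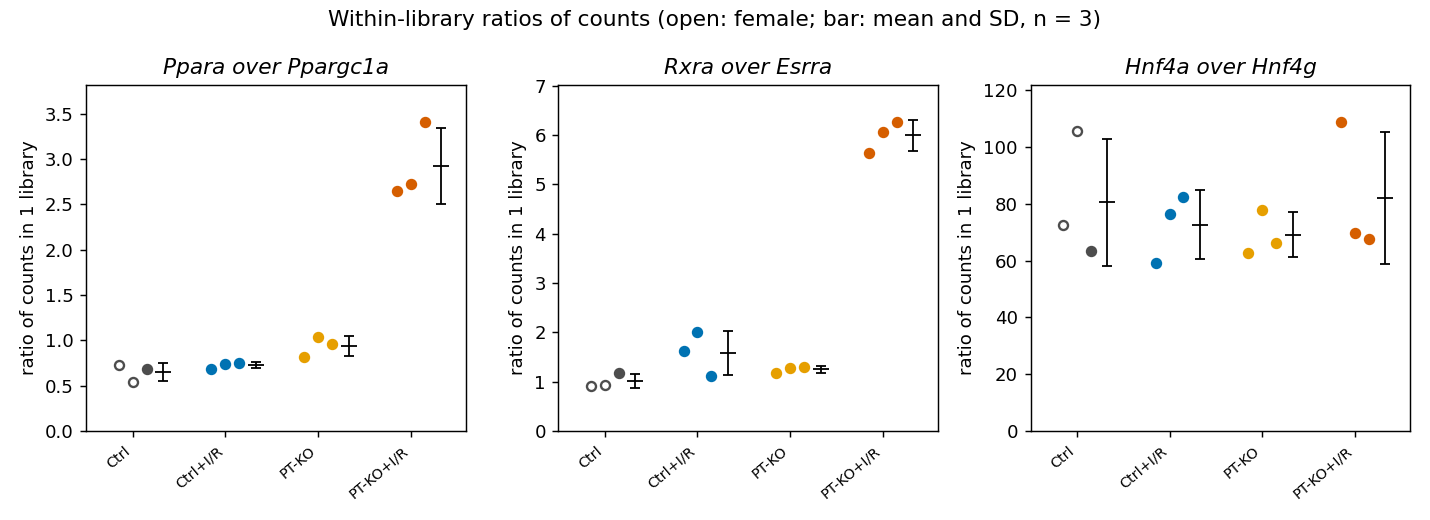
Ratio of the counts of 2 genes in the same library (y axis, from 0) in the 4 groups (x axis), with 1 point a library, open for the female mice, and the mean ± SD of 3 libraries. Ppara over Ppargc1a is 2.65 to 3.41 in PT-KO+I/R and at most 1.04 elsewhere, and Rxra over Esrra is 5.64 to 6.26 and at most 2.00, while Hnf4a over Hnf4g overlaps between all groups.

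Nr1h4 encodes FXR, which in the liver and gut holds back bile acid synthesis and is also abundant in the tubule (chromosome 10, 89454234 to 89533585, minus strand). Ctrl libraries held 109, 91.6 and 171 CPM, Ctrl+I/R libraries 101, 96.7 and 145 CPM, PT-KO libraries 169, 319 and 173 CPM, and PT-KO+I/R libraries 150, 133 and 134 CPM. PT-KO library 2 stood apart from all others, and the male Ctrl library 3 was at the level of the other 2 PT-KO libraries. Between PT-KO and Ctrl the difference was 0.83 (SE 0.30, adjusted p = 0.2501). Without Ctrl library 3, the male one, it was 1.13 (adjusted p = 0.0239), and with that library as the only control it was 0.36 (adjusted p = 0.931). Nr1h4 fell between PT-KO and PT-KO+I/R by 0.67 on the log2 scale (SE 0.21, adjusted p = 0.0179), and by 0.31 without PT-KO library 2. That call was lost without PT-KO+I/R library 3 or 4 (adjusted p = 0.0597 and 0.0566). Between Ctrl+I/R and PT-KO+I/R the difference was 0.27 (SE 0.17, adjusted p = 0.205), and it was 0.48 without Ctrl+I/R library 4 (adjusted p = 0.0123).

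RefSeq places a start of Nr1h4 within the gene on the minus strand of chromosome 10. The 250 bases before it, at chr10:89506659-89506908, are shown because this was the other member window with a nuclear receptor half-site, and capitals mark AGGTCA on either strand.

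Nr1h4, internal start: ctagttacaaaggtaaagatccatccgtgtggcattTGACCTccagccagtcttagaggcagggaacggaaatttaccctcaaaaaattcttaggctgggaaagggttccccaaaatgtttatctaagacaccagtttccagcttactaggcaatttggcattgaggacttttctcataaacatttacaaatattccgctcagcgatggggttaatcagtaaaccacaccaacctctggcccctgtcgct

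The half-site starts 214 bases before the start site. As with the Rxra window, this is a match of letters and not measured binding. Of 15 genes known as FXR targets in liver, gut or kidney, only 8 were tested in the injured kidneys, and Nr0b2, the classic target, stood at 1.52 CPM at most in any library. Of these, 3 fell and none rose between Ctrl+I/R and PT-KO+I/R, while Nr1h4 was not called. Slc10a2, the apical bile acid transporter of the proximal tubule, fell by 3.77 (SE 0.23, adjusted p = 8.24e-05), and Slc51a, a subunit of the basolateral exporter, fell by 2.00 (SE 0.39, adjusted p = 0.00489). Pltp, a phospholipid transfer protein, fell by 1.55 (SE 0.42, adjusted p = 0.0176). The median of the list was -0.40, and it ran from -1.09 (PT-KO+I/R library 2 left out) to 0.07 (Ctrl+I/R library 4 left out), with -1.02 if Ctrl+I/R library 2 was left out. The list takes no account of whether FXR raises or lowers a gene, so its counts and median do not measure FXR activity. Between PT-KO and PT-KO+I/R, where Nr1h4 fell, 5 of 8 fell and 2 rose (Kng1 at 1.63 and Scarb1 at 0.60, named after their values were seen), with a median of -0.99 that was -1.98 without PT-KO+I/R library 2. With I/R in control mice edgeR and DESeq2 called 0 of the FXR targets, 9 of which were tested by edgeR, and 2 had an unadjusted p under 0.05. If Ctrl+I/R library 4 was left out, 2 were called lower.

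Maf was at 296, 368 and 347 CPM in Ctrl, 192, 125 and 214 CPM in Ctrl+I/R, 259, 286 and 250 CPM in PT-KO, and 179, 158 and 175 CPM in PT-KO+I/R. The groups without I/R did not overlap each other or the groups with I/R, and Ctrl+I/R and PT-KO+I/R overlapped. Maf fell with I/R by 0.92 on the log2 scale in control mice (SE 0.21, adjusted p = 0.0284) and by 0.64 in PT-KO mice (SE 0.09, adjusted p = 0.000160). The first call was lost without Ctrl library 1, 2 or 3 or Ctrl+I/R library 1 (adjusted p = 0.0754, 0.101, 0.0580 and 0.0736), and with Ctrl library 3 as the only control the value was -0.95 (adjusted p = 0.260). Ctrl+I/R and PT-KO+I/R differed by -0.06 (SE 0.20, adjusted p = 0.813), and the interaction was 0.29 (SE 0.24, adjusted p = 0.366). Without any 1 library the interaction ran from 0.09 to 0.45 and was not called. Maf (chromosome 8, 115682942 to 115707794, minus strand) shares 440 exon bases with an antisense gene on the opposite strand, Gm15655, which had at most 38 counts in a library.

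Markers of macrophages, which also make MAF, were counted beside it. Their summed level (12 genes) was 141 to 175 CPM in Ctrl, 204 to 420 CPM in Ctrl+I/R, 153 to 180 CPM in PT-KO and 80.1 to 88.6 CPM in PT-KO+I/R. Of 11 tested, 8 rose with I/R in control mice and none fell, and between Ctrl+I/R and PT-KO+I/R 1 of 12 rose and 9 fell. There Adgre1, the F4/80 antigen, fell by 4.37 (SE 0.38, adjusted p = 0.000251), from 7.98 ± 2.08 to 0.384 ± 0.169 CPM (SD, n = 3). The 1 that rose was Cd68, a lysosomal protein of phagocytes, at 0.76 (SE 0.18, adjusted p = 0.0117), from 15.5 ± 2.16 to 26.3 ± 5.36 CPM. At most 1 of the 12 markers was at 0 in any library. The ranges of Maf overlapped in the injured groups while those of the macrophage sums did not, and the part of macrophages in its level was not tested.

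**Figure D5:**
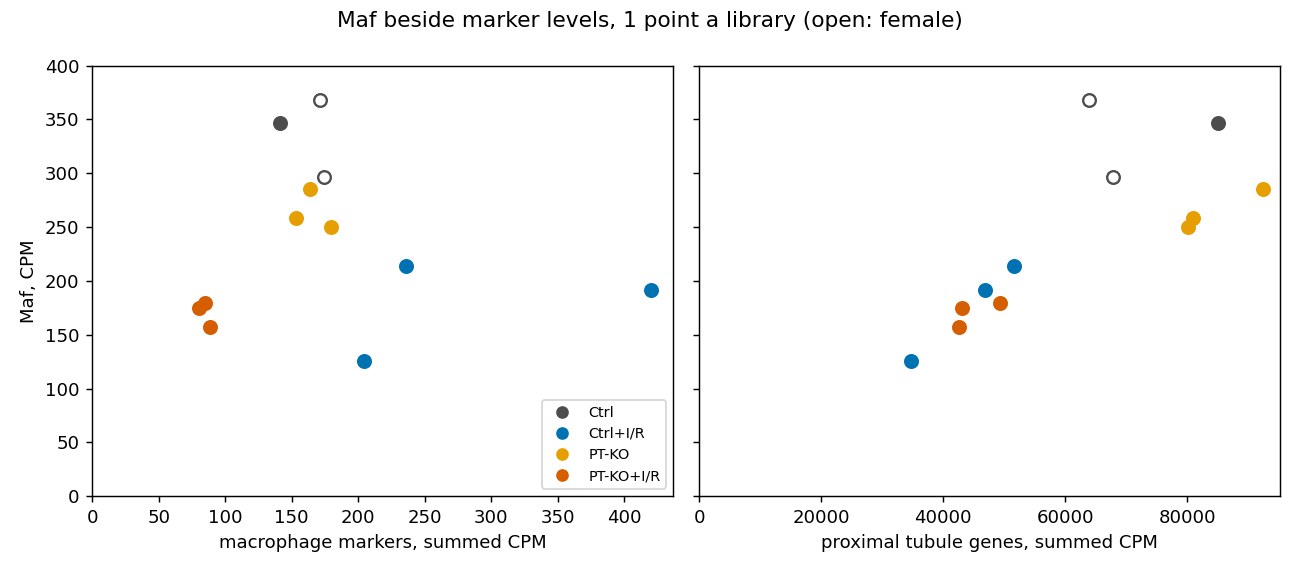
Maf (y axis, CPM from 0) against the summed CPM of 12 macrophage markers (left, x axis) and of 30 proximal tubule genes (right, x axis), with 1 point a library coloured by group and open for the female mice. Maf is at 125 to 214 CPM in Ctrl+I/R and at 158 to 179 CPM in PT-KO+I/R, and their macrophage sums are 204 to 420 and 80.1 to 88.6 CPM.

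Most proximal tubule genes fell after injury of the knockout. With I/R in PT-KO mice 28 of 30 listed genes fell and none rose, with a median log2 difference of -2.19, beside -0.83 for the 8 members. Gatm, an enzyme of creatine synthesis, fell by 5.68 (SE 0.20, adjusted p = 3.80e-08), and Cubn fell by 2.94 (SE 0.10, adjusted p = 3.22e-08). Of the 30, 14 fell between Ctrl+I/R and PT-KO+I/R and 2 rose (Kap and Ttr, at 0.57 and 0.74, named after their values were seen). With 1 library left out, 11 to 20 fell and 0 to 4 rose. Slc2a2, the glucose transporter GLUT2, fell by 3.61 (SE 0.31, adjusted p = 0.000233), and Slc13a3, a dicarboxylate transporter, fell by 2.77 (SE 0.22, adjusted p = 0.000201). In control mice I/R gave 14 of 30 that fell, among them Slc6a19, the neutral amino acid transporter, by 1.63 (SE 0.27, adjusted p = 0.0126). Leaving out Ctrl library 1 or 2 took that count to 0, Ctrl library 3 to 5 and Ctrl+I/R library 1 to 3, while it was 16 or 17 without either of the other two injured libraries. The summed level was 63945 to 84986 CPM in Ctrl, 34688 to 51597 CPM in Ctrl+I/R, 80086 to 92393 CPM in PT-KO and 42615 to 49258 CPM in PT-KO+I/R, so the sums of the injured groups overlapped. A large part of these sums was Gpx3, at 14192 to 17157 CPM in Ctrl+I/R and 17055 to 21873 CPM in PT-KO+I/R. Lrp2 (1273 to 2727 and 648 to 786 CPM) and Cubn (405 to 716 and 118 to 136 CPM) did not overlap between these groups. Of 8 thick ascending limb and distal genes, 3 fell with I/R in control mice and 5 were not called, and in PT-KO mice 7 fell and 1 rose (Trpm6, a magnesium channel, at 0.79, named after its value was seen). Their list summed to 8239 to 11025 CPM in Ctrl, 1743 to 4691 CPM in Ctrl+I/R, 8122 to 9231 CPM in PT-KO and 2317 to 2804 CPM in PT-KO+I/R. Of 8 collecting duct markers, 3 fell with I/R in control mice and 7 in PT-KO mice. Of all tested genes, 7.97% were called lower with I/R in control mice and 32.7% in PT-KO mice. Between Ctrl+I/R and PT-KO+I/R, 4 of 6 neutrophil markers and 4 of 7 endothelial markers rose, 1 endothelial marker fell, and 3 of 7 fibroblast and pericyte markers, 2 of 8 collecting duct markers and 2 of 6 podocyte markers fell. Of all tested genes, 22.5% were called higher there and 24.4% lower. Of the 8 thick ascending limb and distal genes 4 fell there and 1 rose, with a median of -0.86, and of 8 injury markers 5 rose and 1 fell. The 8 T cell markers summed to 8.22 to 22.4 CPM in Ctrl+I/R and 0.77 to 2.64 CPM in PT-KO+I/R, where 2 to 4 of them were at 0 in each library. The part of these differences in the members' levels was not tested.

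Most other listed transcription factors of the tubule fell after injury of the knockout. With I/R in PT-KO mice 7 of 8 fell and Pax8, a factor of kidney development, rose by 1.71 (SE 0.11, adjusted p = 7.89e-07), and Nr3c1, the glucocorticoid receptor, fell by 0.99 (SE 0.11, adjusted p = 2.44e-05). In control mice 5 of 8 fell with I/R and none rose, and Klf15, a regulator of amino acid and lipid metabolism, fell by 1.36 (SE 0.28, adjusted p = 0.0213). Of all tested genes, 32.7% were called lower with I/R in PT-KO mice and 7.97% in control mice. Without Ctrl library 1, Ctrl library 2 or Ctrl+I/R library 1, edgeR called 0 of 8 there, and 1 rose and 1 fell if Ctrl library 3 was left out and 2 fell if Ctrl+I/R library 2 was. Pax8 also rose by 1.33 between Ctrl+I/R and PT-KO+I/R (SE 0.15, adjusted p = 0.000549), where 46.9% of all genes were called. Nr3c1 fell there by 0.60 (SE 0.12, adjusted p = 0.00562), and the other 6 were not called. With total-count scaling 1 was higher and 5 were lower there.

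Relatives of the members moved in both directions. Of 13 tested, 6 rose and 3 fell between Ctrl+I/R and PT-KO+I/R. The small MAF proteins Mafk and Mafg, partners of larger factors, rose by 1.51 (SE 0.19, adjusted p = 0.000763) and 0.58 (SE 0.10, adjusted p = 0.00326), while Maf was not called. Esrrg, the close relative of Esrra, fell with I/R in PT-KO mice by 1.28 (SE 0.09, adjusted p = 1.32e-06). Pprc1, a relative of Ppargc1a, rose with I/R in control mice by 1.23 (SE 0.17, adjusted p = 0.00887), where Ppargc1a fell. Maff, another small MAF protein, rose there by 3.56 (SE 0.52, adjusted p = 0.00959), and Esrrb, the third ERR receptor, fell by 1.41 (SE 0.27, adjusted p = 0.0189). No relative was called lower in control mice if Ctrl library 1, Ctrl library 2 or Ctrl+I/R library 1 was left out. Among 12 nuclear receptor co-regulators, 2 rose (Ncoa2 by 0.63 and Crebbp by 0.44) and 1 fell (Kat2a by 0.33) between Ctrl+I/R and PT-KO+I/R. With 1 library left out 1 to 3 rose, and none fell in 4 of these 6 fits (Ctrl+I/R library 1 or any PT-KO+I/R library left out). In PT-KO mice 3 of 12 fell with I/R, Lpin1 the furthest of these by 1.42 (SE 0.11, adjusted p = 3.11e-06), and 3 rose and 4 fell without PT-KO+I/R library 2. With I/R in control mice edgeR and DESeq2 called 0 of 13, and 4 had an unadjusted p under 0.05, while 2 were called lower if Ctrl+I/R library 4 was left out.

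The profiles of the members over the 12 libraries were set beside those of 11233 genes with a mean of at least 5 CPM, as the mean absolute difference of log2 CPM after centring. Among the members, Ppargc1a and Esrra were the closest pair (0.20), followed by Hnf4a and Hnf4g (0.21) and Hnf4a and Maf (0.23), and Esrra and Rxra were the farthest (0.87). Each member had closer neighbours elsewhere. Hnf4a was nearest to Tbc1d13 (0.06), Msrb2 (0.06) and Ndufaf6 (0.08), Hnf4g to Rfesd (0.10) and Oxld1 (0.11), and Ppargc1a to Fgf9 (0.08), Nr3c2 (0.10) and Stard8 (0.10). Esrra was nearest to Mthfd1 (0.07), Pfkm (0.08) and D10Jhu81e (0.10), Rxra to Bri3 (0.07), Tmem243 (0.08) and Kat2b (0.08), and Maf to Cox7b (0.11), Ndrg3 (0.12) and Grb7 (0.12). Nr1h4 had Larp4b (0.14), Pdzrn3 (0.15) and Coasy (0.15) as its nearest genes. Ppara had the most distant nearest gene of the 8, Scnn1a at 0.18, with Arl4d (0.19) and Aldh8a1 (0.20) after it.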

How the data were processed

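Whole-gene read counts, 1 column a library, were deposited by the authors for 12 libraries of mouse kidney cortex. The submitters' processing notes name HISAT2 2.0.4 and mm10 with no role given, and the counting program, annotation and strand setting are not given in the sources used here. The 8 members and all gene lists were chosen with earlier results of these data known, so neither is independent support. Nothing in the labels says whether libraries of a group came from separate mice, so p-values measure only the spread between these libraries. No pair of libraries within a group agreed within sampling noise.

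Counts were filtered with filterByExpr, scaled by TMM and tested by edgeR 4.0.16 (quasi-likelihood F test, R 4.3.3, Benjamini-Hochberg adjustment over all genes tested). Each comparison was fitted to its own 6 libraries and the interaction to all 12. Log2 differences are given with SE. CPM used TMM sizes over the 12 libraries, and RPKM divided them by the union of GENCODE M21 exons. From each list and comparison at most the 3 called genes with the smallest adjusted p were to be named, with the first 2 genes of each marker list and the 3 nearest profiles of each member. Alternatives were RLE and total-count scaling, DESeq2 1.42.0, no filter, 1 fit to all 12 libraries, a floor of 10 counts in each library, the replicate number as a block, sex as a covariate, male libraries only, and leaving out each library. The fits were tested on simulated data. Some genes that the rule would name are not reported here.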

Additional observations from a re-analysis of the deposited data

Results flagged for a closer look

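The change with I/R differed between genotypes by a test of the difference itself (edgeR, interaction over all 12 libraries) for 2 of the 8 genes. Of all 16168 tested genes, 30.6% were called by that test. For Ppara the interaction was 0.92 on the log2 scale (SE 0.29, adjusted p = 0.0322): the change with I/R was -0.83 in control mice and 0.07 in PT-KO mice, and all 3 PT-KO+I/R libraries lay above the 3 Ctrl+I/R libraries. The Ppara call was lost in 5 of the 12 fits without 1 library. For Esrra the interaction was -1.24 (SE 0.27, adjusted p = 0.00549), with changes of -0.68 and -1.93, and all 3 PT-KO+I/R libraries lay below the 3 Ctrl+I/R libraries. Sex was not balanced in Ctrl and its part in either value was not tested beyond the fits with male libraries alone (0.80, adjusted p = 0.168 for Ppara, and -1.29, adjusted p = 0.0440 for Esrra) and with sex as a covariate (0.81, adjusted p = 0.126, and -1.29, adjusted p = 0.0256). Groups of 3 libraries were not searched for outlying samples.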

How the results depend on the processing

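No called member changed direction under any alternative. For PT-KO+I/R against PT-KO, leaving out 1 library gave 5 to 7 members and 9111 to 10262 genes. For Ctrl+I/R against Ctrl (3 members, 3019 genes) it gave 0 to 5 members and 379 to 4061 genes, the fit to all 12 libraries gave 4938 genes, sex as a covariate left 1 member, and male libraries only left 0 members and 0 genes (a lone Ctrl library, assumed to vary like the others). The member still called for Ctrl+I/R against Ctrl with sex as a covariate was Maf, and Ppara and Ppargc1a were not called. Between Ctrl+I/R and PT-KO+I/R (4 members, 7169 genes) leaving out 1 library gave 3 to 5 members and 4918 to 7509 genes. For PT-KO against Ctrl (0 and 0) it gave 0 to 2 members and 0 to 1930 genes, total counts gave 1 gene, DESeq2 448, no low-count filter 388 and male libraries only 8. For the interaction (2 members, 4953 genes) it gave 1 to 4 members and 3622 to 5509 genes, sex as a covariate 3233 genes, and male libraries only 1 member and 2539 genes. The causes were not tested.

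With the replicate block, Ctrl+I/R and PT-KO+I/R differed in 1 member (Ppara) and 1683 genes, and Rxra, Ppargc1a and Esrra were no longer called. With the same block PT-KO against Ctrl gave 1 member (Nr1h4, 1.21) and 1378 genes, and the interaction gave 3215 genes. Over 12 pairs of the same replicate number, deviations from the group means correlated between -0.19 and 0.18. Pairs of different numbers were not set beside them, so whether the numbers pair the libraries was not settled.

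Total-count scaling moved the median of all genes from -0.01 to 0.11 for Ctrl+I/R against Ctrl, where 75.4% of calls were then higher in place of 58.9%. It moved the median from -0.01 to -0.14 for PT-KO against Ctrl and from -0.02 to -0.10 for the interaction, where 34.7% of calls were higher in place of 46.5%. Under it Nr1h4 and Rxra, not called, stood at 0.02 and 0.01 in place of -0.11 and -0.12 for Ctrl+I/R against Ctrl. Esrra was called for Ctrl+I/R against Ctrl by DESeq2 (adjusted p = 0.0298), and Nr1h4 was not called by it for PT-KO+I/R against PT-KO (adjusted p = 0.0759). Hnf4g had as few as 56 counts in a library, and Nr1h4 varied most within groups (SD 0.39 on the log2 CPM scale).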
